A study of Mus musculus with 8 samples.

Results

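The kinases that mTOR complex 2 phosphorylates on their carboxy-terminal tails were followed here at the transcript level in mouse intestinal epithelium, together with the kinase that activates them. The 9 genes were Akt1 and Akt2, Sgk1, Sgk2 and Sgk3, the protein kinase C genes Prkca, Prkcd and Prkce, and Pdpk1. They were chosen by name, as the rows of the deposited tables that carry these symbols, 9 of 54139 genes, and all 9 were among the 14701 genes that passed the filter on low counts. The study compared 4 libraries from intestinal epithelial cells of mice that carry Villin-Cre (WT) with 4 libraries from mice that carry Rictor Flox and Villin-Cre (cKO). Villin-Cre is a transgene in which the Villin promoter drives Cre recombinase in the epithelium of the gut, so both groups express Cre and the groups differ by the floxed Rictor allele. Rictor encodes the subunit that defines mTOR complex 2, and the comparison asks what its loss does to transcripts. The sources used here do not give the gut segment, how cells were isolated, which exons the loxP sites flank, the zygosity, or the age and sex of the mice, nor whether each library came from its own mouse.

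AGC kinases are serine/threonine kinases related to the kinases A, G and C that respond to cyclic nucleotides and lipids. Most need phosphate at several places: on the activation loop, added by PDK1 (the product of Pdpk1), and on the turn motif and hydrophobic motif of the carboxy-terminal tail, where mTOR complex 2 acts on Akt, SGK and several protein kinase C proteins. In the gut epithelium Akt is known for its part in insulin and growth factor signalling, SGK for the control of sodium channels and exchangers, and protein kinase C for tight junctions, secretion and cell renewal. All of these events are changes of protein, whereas the measurements here are of RNA.

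The hydrophobic motif is what joins the kinases as a group, so its coding bases are shown for the 8 members that have it. Each line gives 18 bases, 5′ to 3′ on the gene's own strand, with the codon of the serine that receives the phosphate in capitals, from GENCODE M21 transcripts on mouse build GRCm38.
Akt1: ttcccccagttcTCCtac
Akt2: ttcccccagttcTCCtac
Sgk1: ttcctcggcttcTCCtat
Sgk2: ttccttggatttTCCtat
Sgk3: tttgttggttttTCTtac
Prkca: tttgaagggttcTCGtat
Prkcd: ttccatggcttcTCCttt
Prkce: ttcaaaggcttcTCCtac
Akt1 and Akt2 shared all 18 bases, whereas Sgk1 shared 15 with Sgk2 and 11 with Sgk3, and Prkcd shared 14 with Prkce and 12 with Prkca. Across families the nearest pair was Sgk1 and Prkcd, with 15 of 18 bases in common, as many as Sgk1 shared with Sgk2. Counted from the first codon, the serine is residue 473 of Akt1 (chr12:112654719-112654736, minus strand, exon 14) and residue 474 of Akt2 (chr7:27638103-27638120, plus strand, exon 14). It is residue 422 of Sgk1 (chr10:21998783-21998800, plus strand, exon 12), residue 356 of Sgk2 (chr2:163013024-163013041, plus strand, exon 14) and residue 486 of Sgk3 (chr1:9898843-9898860, plus strand, exon 17). In the protein kinase C genes it is residue 657 of Prkca (chr11:107939561-107939578, minus strand, exon 17), residue 662 of Prkcd (chr14:30595903-30595920, minus strand, exon 18) and residue 729 of Prkce (chr17:86654646-86654663, plus strand, exon 16). Each of the 8 coding sequences held the motif once, within the last 60 codons. Pdpk1 held 0 matches in its 559 codons. PDK1 is known to dock onto this motif of its substrates through a pocket in its own kinase domain.

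Library totals ran from 15110451 to 18708335 counts. Rictor, the targeted gene, had 41.7, 42.3, 57.3 and 51.3 CPM (counts relative to the library total, here after TMM scaling) in WT libraries 1 to 4 and 30.4, 39.5, 20.8 and 40.5 CPM in cKO libraries 1 to 4. Every cKO library lay below every WT library, the nearest by little. In edgeR the log2 fold change was -0.55 ± 0.20 (SE), which leaves 0.501 to 0.926 of WT within the 95% interval, at an adjusted p of 0.921. Without WT 3 and cKO 3 it was -0.29, with a 95% interval on the log2 scale from -0.60 to 0.019 that includes 0. With the length and GC trend described below removed it was -0.41 (interval from -0.69 to -0.12), and with voom it was -0.25. In all 20 other settings the estimate was below 0, from -0.67 to -0.25, and Rictor was called in 0. The counts cover the whole gene, deleted exons or not, and the exons that the allele removes are not known here. All 10 epithelial markers were detected in all libraries, with a summed level from 10079 to 13562 CPM, against 11.1 to 22.7 CPM for 12 stromal and endothelial markers and 0.673 to 1.83 CPM for 6 markers of enteric nerves and glia. Libraries WT 3 and cKO 3 stood apart. The 15 enterocyte markers summed to 25282 CPM in WT 3, against 9877 to 11976 CPM in the other WT libraries and 11473 to 17399 CPM in cKO. In cKO 3, a smooth trend on gene length and transcript GC content took up 29.2% of the variance of the genes' log2 deviations. In the other 7 libraries it took up 0.498% to 4.04%. The 8 enteroendocrine markers all had higher point estimates in cKO, with sums of 397 to 532 CPM in WT and 534 to 656 CPM in cKO, and 0 were called, while 5 had an unadjusted p under 0.05, beside 3.9% of all genes. Their part in the values given here was not tested. For results below that WT 3 and cKO 3 move by a large factor or in sign, the value without them is given.

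Levels of different genes were compared per length, on the FPKM scale that the authors deposited (fragments relative to the length of the gene and the size of the library). Akt1 was the most abundant of the 9 transcripts, with 48.8 ± 5.75 FPKM in WT and 53.9 ± 8.13 FPKM in cKO (SD, n = 4 each, as for every mean below). Its WT level was above that of 92.6% of the genes tested. Prkcd followed, at 26.1 ± 4.99 FPKM in WT and 24.9 ± 1.35 FPKM in cKO. A middle group held Prkca (18.9 ± 1.39 and 17.6 ± 2.67 FPKM in WT and cKO), Sgk1 (19.1 ± 7.96 and 15.5 ± 5.396 FPKM), Pdpk1 (10.4 ± 0.183 and 9.80 ± 1.42 FPKM) and Akt2 (8.11 ± 0.723 and 9.03 ± 1.49 FPKM). Prkce was lower, at 3.46 ± 0.473 and 3.20 ± 0.457 FPKM. Sgk2 and Sgk3 were the least abundant members and had less than 1 FPKM on average, at 0.541 ± 0.439 and 0.497 ± 0.161 FPKM in WT and at 0.326 ± 0.220 and 0.454 ± 0.152 FPKM in cKO. Their WT levels were above those of 12% and 10.97% of the genes tested.

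**Figure D1:**
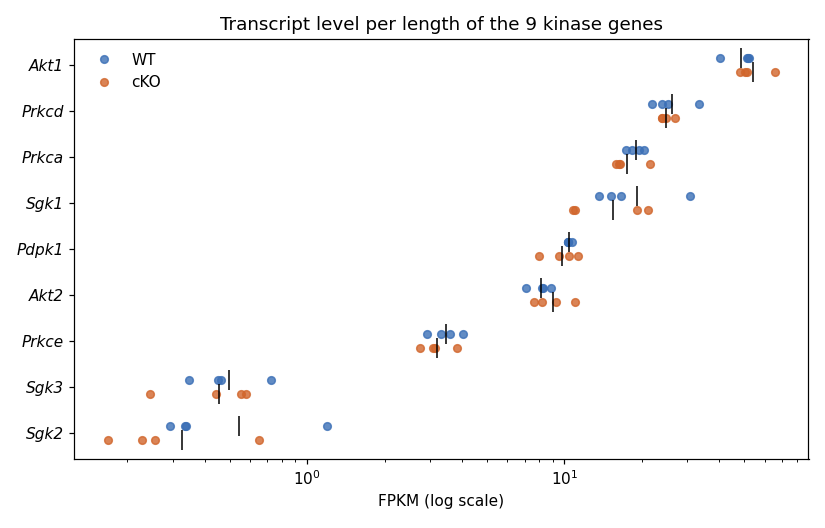
Transcript level of each of the 9 genes in FPKM (horizontal axis, log scale), 1 point per library, WT in blue and cKO in orange, with a vertical tick at each group's mean, genes ordered by the mean of all 8 libraries. Akt1 and Prkce occupy ranges of their own and Sgk2 and Sgk3 share the lowest one, while Prkcd, Prkca, Sgk1, Pdpk1 and Akt2 run into each other.

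The order of levels was read library by library, because each gene pair then shares a library. Akt1 exceeded Prkcd in 8 of 8 libraries by 2.01-fold on the means, and the ranges did not overlap. Prkcd exceeded Prkca in 8 of 8 by 1.40-fold, again without overlap. The Sgk1 value of WT 3, 30.9 FPKM, lay inside the Prkcd range, although Prkcd exceeded Sgk1 in 8 of 8 libraries. Prkca and Sgk1 did not separate: Prkca was higher in 6 of 8 libraries, and the means differed by 1.05-fold over all libraries. In the WT libraries alone the mean of Sgk1 was the higher by 1.01-fold, although Sgk1 led in 1 of 4, WT 3. Without WT 3 that order turned. Sgk1 had 13.6, 16.7 and 15.2 FPKM in WT 1, 2 and 4, against 17.3, 18.3 and 20.5 FPKM for Prkca. Sgk1 exceeded Pdpk1 in 7 of 8 libraries (1.71-fold) and Pdpk1 exceeded Akt2 in 7 of 8 (1.18-fold), with overlapping ranges in both pairs. Akt2 lay above Prkce in 8 of 8 (2.57-fold) and Prkce above Sgk3 in 8 of 8 (7.01-fold), both without overlap. Sgk3 and Sgk2 did not separate, with Sgk3 the higher in 6 of 8 libraries.

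Within families, 1 Akt gene and 1 SGK gene supplied most of the transcript, and the protein kinase C family was spread over several genes. Akt1 made up 85.6% ± 2.03 of the summed FPKM of Akt1 and Akt2 in WT and 85.7% ± 0.704 in cKO, with single libraries from 83.0% to 87.8%. Akt2 took the remaining 14.4% and 14.3%. The lowest Akt1 share and the highest Akt2 share, 17.04%, were both in WT 3. Of the SGK sum, Sgk1 supplied 95.03% ± 0.630 in WT and 94.8% ± 2.60 in cKO. The lowest Sgk1 share, 91.0%, was in cKO 1, where Sgk2 reached 5.39%, its highest share of any library. Of the 8 protein kinase C genes compared, Prkcd had the largest share, 31.9% ± 3.66 in WT and 32.7% ± 2.69 in cKO. Prkca had 23.3% ± 1.87 and 22.9% ± 2.45, and Prkce 4.25% ± 0.343 and 4.18% ± 0.427. The remainder was mostly the atypical isoforms, which lack the diacylglycerol response of the others: Prkci at 26.2% ± 3.09 and 24.1% ± 1.999 and Prkcz at 12.6% ± 1.202 and 13.7% ± 0.605. Prkch, Prkcb and Prkcq each had a smaller share than Prkce in every library. The make-up of the Akt and SGK families thus differed between the genotype means by less than the spread between libraries.

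**Figure D2:**
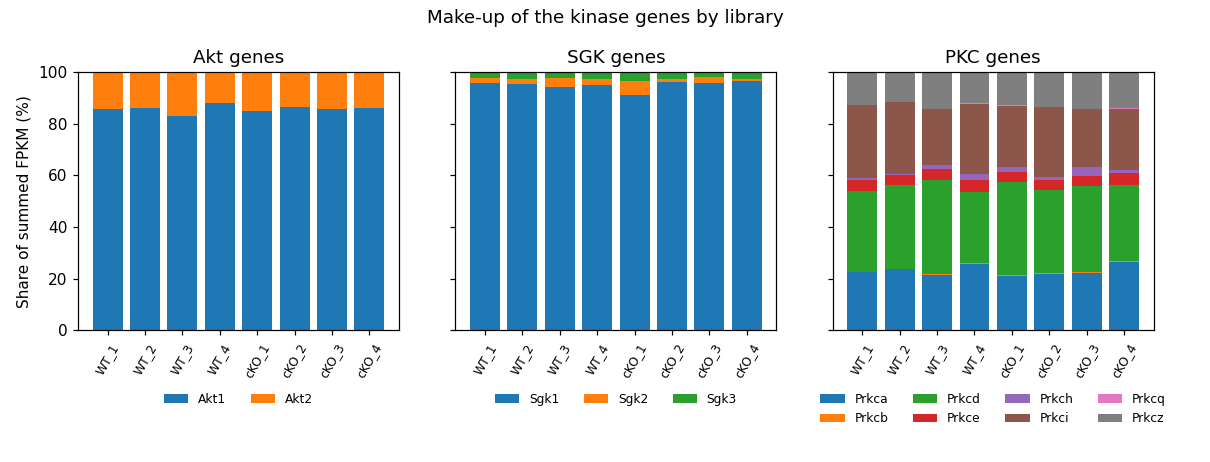
Share of each gene (vertical axis, percent of the summed FPKM of the genes shown) among Akt1 and Akt2, the 3 SGK genes and 8 protein kinase C genes, 1 stacked bar per library. Akt1 stays between 83.0% and 87.8% and Sgk1 between 91.0% and 96.6% of their sums, while Prkcd, Prkci, Prkca and Prkcz share the protein kinase C sum.

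Summed, Akt1 and Akt2 came to 56.9 ± 5.74 FPKM in WT and 62.9 ± 9.55 FPKM in cKO. The SGK sum was 20.1 ± 8.55 and 16.3 ± 5.399 FPKM, and the protein kinase C sum 81.4 ± 6.77 and 76.4 ± 3.20 FPKM. In each family the WT and cKO values overlapped. The highest Akt sum, 76.9 FPKM, was in cKO 3, and the highest SGK sum, 32.8 FPKM, in WT 3. Without WT 3 and cKO 3 the Akt mean was lower in cKO and the SGK mean higher, so both directions turned. The Akt sums were then 61.1, 59.3 and 58.6 FPKM in WT 1, 2 and 4 and 60.6, 55.7 and 58.5 FPKM in cKO 1, 2 and 4. The SGK sums were 14.2, 17.5 and 15.95 FPKM in WT and 12.1, 20.04 and 21.8 FPKM in cKO. The protein kinase C sums were 77.2, 77.5 and 79.4 FPKM in WT and 74.8, 75.0 and 81.2 FPKM in cKO. Their mean stayed lower in cKO, by less than with all libraries, and cKO 4 was the highest of these values.

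The genotype comparison asked whether loss of Rictor went with a change in the transcripts of the kinases that depend on it. None of the 9 genes differed between cKO and WT by the quasi-likelihood test of edgeR with Benjamini-Hochberg adjustment over all genes tested, with adjusted p from 0.921 to 0.957. That count of 0 stands beside 2 of 14701 genes, or 0.0136% that the same rule called. At an unadjusted p under 0.05 the count was also 0 of 9, beside 3.9% of all genes, and 0 of 9 had groups that did not overlap, beside 3.22% of all genes. DESeq2, voom and limma on FPKM called 0 members as well. The point estimate was higher in cKO for 2 members, Akt1 and Akt2, and lower for the other 7, with a median log2 fold change of -0.11. Over all genes 50.5% were higher and the median was 0.0022. In bulk RNA a lower level can come from fewer cells of a type or from less RNA per cell, which cannot be told apart.

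**Figure D3:**
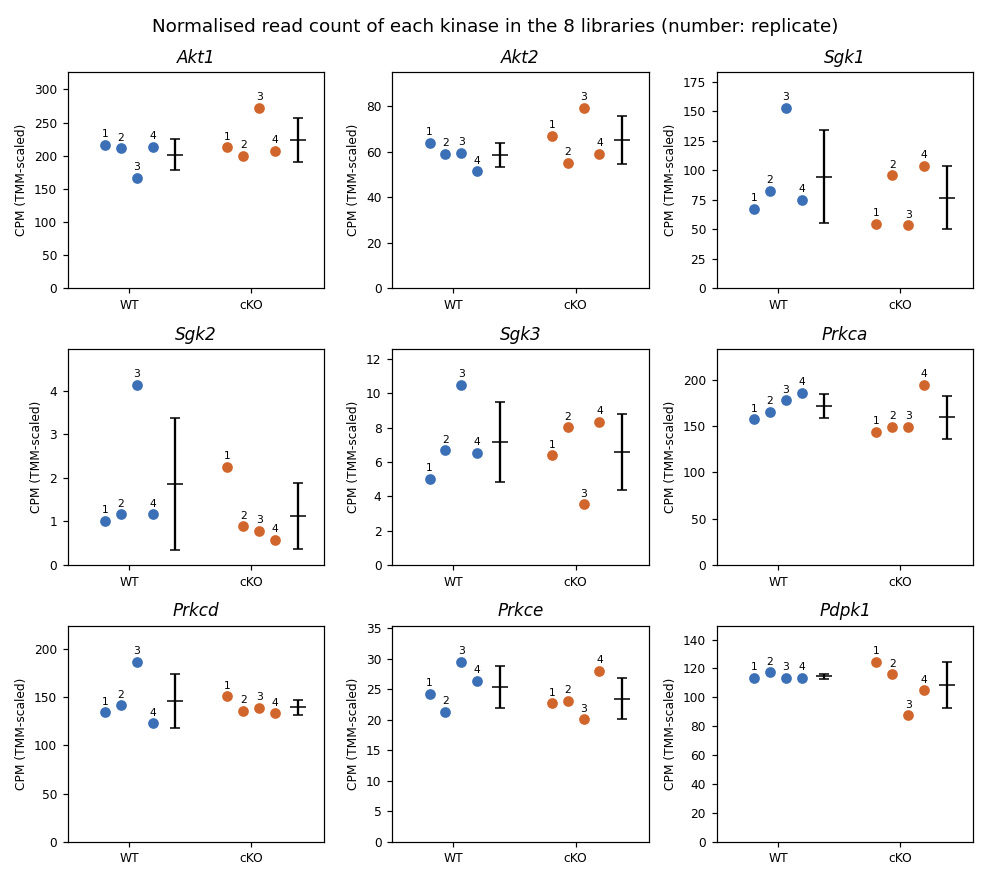
CPM of each gene (vertical axis from 0, its own scale in each panel) in the 4 WT libraries (blue) and the 4 cKO libraries (orange), with the replicate number at each point and the group mean ± SD in black. The groups overlap in all 9 panels, WT 3 is the highest point for Sgk1, Sgk2, Sgk3, Prkcd and Prkce, and cKO 3 is the highest for Akt1 and Akt2.

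Pdpk1, the activator upstream of all the others, was the steadiest in WT. It had 114, 117, 114 and 114 CPM in WT 1 to 4 and 125, 116, 87.6 and 105 CPM in cKO 1 to 4. The WT libraries sat within a narrow band, and the cKO libraries lay on both sides of it, with cKO 3 the lowest of all 8. Its log2 fold change was -0.081 ± 0.12 (SE), and the 95% interval allowed from 0.791 to 1.13 of the WT level. Without cKO 3 the estimate was 0.0077, and without both libraries 3 it was 0.0036.

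Akt1, the more abundant of Akt1 and Akt2, had 216, 211, 166 and 213 CPM in WT 1 to 4 and 213, 199.96, 272 and 207 CPM in cKO 1 to 4. WT 3 was low and cKO 3 was high, and the other 6 libraries lay close together between them. The log2 fold change was 0.14 ± 0.13, with an interval from 0.903 to 1.35 of WT. Akt2, the isoform best known for insulin-driven glucose uptake, had 63.8, 59.0, 59.4 and 51.3 CPM in WT and 67.0, 55.2, 79.2 and 58.9 CPM in cKO. Again cKO 3 was the highest and the groups overlapped. Its log2 fold change was 0.16 ± 0.13, and the interval ran from 0.916 to 1.36 of WT. The cKO 3 level was 1.32 times the mean of the other cKO libraries for Akt1 and 1.31 times for Akt2. Akt1 and Akt2 had the highest transcript GC content of the 9 genes, 59.7% and 55.2%, and the length and GC trend of cKO 3 stood at 0.28 and 0.20 on the log2 scale at their positions. Offsets that took this trend out of the libraries gave log2 fold changes of -0.0080 and 0.067, and without WT 3 and cKO 3 they were -0.047 and 0.057, so the sign for Akt1 turned in both cases.

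Sgk1 was the most variable of the abundant members. This kinase is induced by glucocorticoids, aldosterone and osmotic stress, and phosphorylates the ubiquitin ligase NEDD4L, which removes sodium channels from the cell surface. It had 67.4, 82.3, 153 and 75.1 CPM in WT 1 to 4 and 54.5, 95.7, 53.2 and 104 CPM in cKO 1 to 4. WT 3 was far above all others, and the cKO libraries formed a low pair (1 and 3) and a high pair (2 and 4) on either side of the other WT values. The highest library had 2.86 times the lowest on the FPKM scale. The log2 fold change was -0.30 ± 0.32, and the wide interval, 0.494 to 1.34 of WT, held large decreases as well as increases. Without WT 3 the estimate was 0.035, and without both libraries 3 it was 0.18.

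Sgk2 and Sgk3 were measured from few reads. Sgk2, best known from liver, kidney and pancreas, was counted 19, 21, 67 and 19 times in WT and 38, 15, 14 and 9 times in cKO. These counts were 1.01, 1.16, 4.13 and 1.16 CPM in WT and 2.25, 0.885, 0.785 and 0.577 CPM in cKO. WT 3 stood alone at the top, its exact Poisson interval of 3.20 to 5.25 CPM clear of every other library's, and cKO 1 came next. The log2 fold change was -0.72 ± 0.56, the largest estimate among the members and the least precise, with an interval from 0.257 to 1.44 of WT. Without WT 3 it was 0.024 and without both libraries 3 it was 0.16, whereas without cKO 1 it was -1.29 at an adjusted p of 0.808. Sgk3, which differs from the others by a lipid-binding domain that takes it to endosomes, had 5.03, 6.68, 10.5 and 6.53 CPM in WT and 6.39, 8.02, 3.53 and 8.33 CPM in cKO. WT 3 was again the highest and cKO 3 the lowest, while the groups overlapped among the other 6 libraries. It differed by -0.13 ± 0.30 on the log2 scale (0.582 to 1.44 of WT). At 38.9% Sgk3 had the lowest transcript GC content of the 9, and the trend of cKO 3 stood at -0.57 at its position. With the trend removed the estimate was 0.045, and without both libraries 3 it was 0.32.

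Among the protein kinase C genes, Prkca, a classical isoform that responds to calcium and diacylglycerol, had 157, 166, 178 and 186 CPM in WT and 144, 149, 149.6 and 195 CPM in cKO. In cKO 4 it was the highest of all 8 libraries, whereas cKO 1, 2 and 3 were lower than any WT library. On the log2 scale the difference was -0.11 ± 0.12 (0.773 to 1.12 of WT). Without cKO 4 it was -0.21, and without both libraries 3 it was -0.059. Prkcd, a calcium-independent isoform linked to apoptosis and barrier function, had 134, 141, 187 and 123 CPM in WT and 150.5, 135, 139 and 133 CPM in cKO. WT 3 was the highest, and the cKO libraries all fell inside the WT range. Its log2 fold change was -0.068 ± 0.13 (0.779 to 1.17 of WT). Prkce, the least abundant of these isoforms, had 24.3, 21.3, 29.6 and 26.4 CPM in WT and 22.7, 23.1, 20.1 and 28.0 CPM in cKO. The groups overlapped, with WT 3 highest and cKO 3 lowest. The log2 fold change was -0.11 ± 0.14 (0.746 to 1.15 of WT). Without both libraries 3 the estimate was 0.073 for Prkcd and 0.037 for Prkce. Exact permutation tests on the CPM of the 8 libraries, two-sided, gave unadjusted p from 0.4 for Akt2 to 0.8 for Prkcd over the 9 members.

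**Figure D4:**
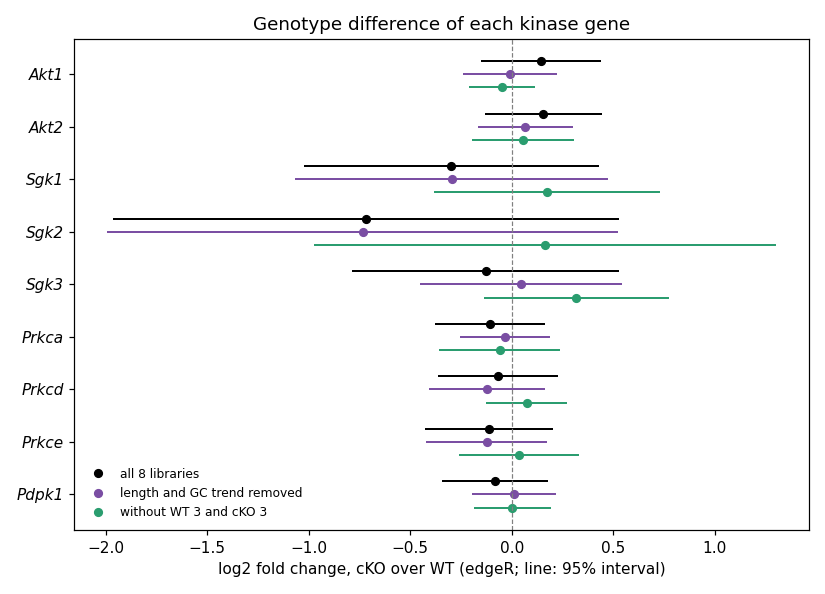
Log2 fold change of cKO over WT (horizontal axis) for each gene with its 95% interval from edgeR, for all 8 libraries (black), with each library's length and GC trend removed (purple), and without WT 3 and cKO 3 (green). Every interval includes 0, the intervals of Sgk1, Sgk2 and Sgk3 are the widest, and the estimates without the libraries numbered 3 are above 0 for 7 genes and below 0 for Akt1 and Prkca.

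The intervals differed in width between the families. For Akt1, Akt2, Prkca, Prkcd, Prkce and Pdpk1 the lower bounds were between 0.746 and 0.916 of WT and the upper bounds between 1.12 and 1.36. For the 3 SGK genes the bounds were wider, from 0.257 to 1.44 of WT.

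The library effects had a pattern among the members. WT 3 was the highest of the 8 libraries for 5 members (Sgk1, Sgk2, Sgk3, Prkcd and Prkce) and the lowest for Akt1. Relative to the mean of the other WT libraries it had 2.04 times the Sgk1 level, 3.73 times the Sgk2 level, 1.73 times the Sgk3 level and 1.41 times the Prkcd level, but 0.778 times the Akt1 level. This is the library with the highest sum of enterocyte markers, given above, and the part of those cells in the SGK values was not tested. cKO 3 was the highest for Akt1 and Akt2 and the lowest for Sgk1, Sgk3, Prkce and Pdpk1, with 0.466 times the Sgk3 level and 0.761 times the Pdpk1 level of the other cKO libraries. Rictor itself was at 0.564 of the other cKO libraries there, where the trend at its length and GC content was -0.45. For Sgk1 the trend in cKO 3 was -0.0088 and its level there was 0.629 of the other cKO libraries. The cause of these levels was not tested. Without both libraries 3, the estimates of 7 members were above 0 and those of 2 below, with a median log2 fold change of 0.057 in place of -0.11, and 0 were called.

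**Figure D5:**
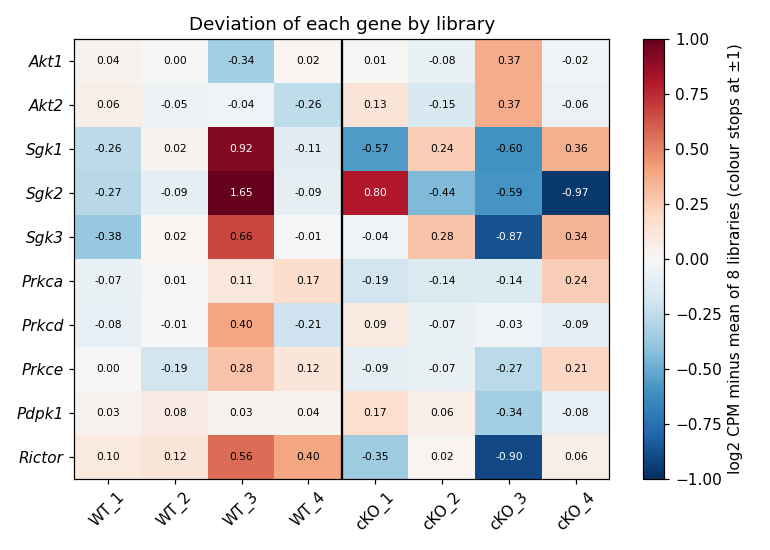
Log2 CPM of each gene in each library minus its mean over the 8 libraries (colour scale to ±1, value printed in each cell), for the 9 genes and Rictor, with WT left and cKO right of the line. WT 3 is above the mean for all 3 SGK genes and for Rictor, at 0.92 for Sgk1 and 1.65 for Sgk2, and cKO 3 is at 0.37 for both Akt genes and at -0.87 for Sgk3.

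None of 5 further protein kinase C genes was called. All 5 were tested, of which 4 were estimated higher and 1 lower. Prkci, the more abundant atypical isoform, had 119 ± 5.35 CPM in WT and 103 ± 9.52 CPM in cKO (log2 fold change -0.20 ± 0.10, adjusted p = 0.921). Prkch and Prkcq, isoforms prominent in T cells, had log2 fold changes of 0.49 ± 0.47 and 0.50 ± 0.51, both at an adjusted p of 0.921. Without cKO 3 the estimates were 0.0054 for Prkch and 0.22 for Prkcq, and without both libraries 3 they were 0.11 and 0.40. Prkch was at 20.6 CPM in cKO 3 and 12.9 CPM in WT 4, the same libraries that had the highest summed level of 15 T cell and intraepithelial lymphocyte markers in their groups (796 and 653 CPM, against 199 to 583 CPM in the other 6). All 15 of these markers were detected in all libraries. For 14 the point estimate was higher in cKO, beside 50.5% of all genes, and 0 were called. Without WT 3 and cKO 3 they summed to 243, 199 and 653 CPM in WT 1, 2 and 4. In cKO 1, 2 and 4 they summed to 583, 256 and 288 CPM. The part of these cells in the Prkch and Prkcq values was not tested. Of 27 other AGC kinases tested, 11 had higher and 16 lower estimates and 0 were called. The lowest p in that list was that of Dmpk, a myosin phosphatase regulator, with 12.3 ± 1.604 and 17.3 ± 3.38 CPM in WT and cKO (0.49 ± 0.17, adjusted p = 0.921). Rock1, a kinase that acts on the actin cytoskeleton, was at -0.31 ± 0.17, and at -0.13 without both libraries 3.

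Of the 10 subunits and assembly factors of mTOR complex 2, all tested, 6 had higher and 4 lower estimates and 0 were called. At an unadjusted p under 0.05 there were 3, Rictor being 1 of them, beside 3.9% of all genes. Deptor, an inhibitory binding partner of mTOR, had 157 ± 19.9 CPM in WT and 110 ± 31.4 CPM in cKO (-0.52 ± 0.19, adjusted p = 0.921), with cKO 3 the lowest at 72.3 CPM, and was at -0.28 without both libraries 3. Tti2, part of the chaperone assembly that folds mTOR, had 14.9 ± 1.17 and 18.01 ± 0.458 CPM without overlap between the groups (0.27 ± 0.12, adjusted p = 0.921). Among 26 chaperones, phosphatases and binding proteins of these kinases, 10 were higher and 16 lower and 0 were called. Rack1, a scaffold of activated protein kinase C, was at 0.24 ± 0.15, and Trib1, a pseudokinase, at 0.19 ± 0.13. Without both libraries 3 they were at 0.039 and 0.12.

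Transcripts of the kinases' substrates were split between higher and lower. Of 24 Akt substrates tested, 13 had higher and 11 lower estimates and 0 were called, with a median of 0.012. Gsk3b, the kinase that Akt and SGK both inhibit, had 116 ± 5.13 CPM in WT and 104 ± 7.27 CPM in cKO, and Tsc2, the brake on mTOR complex 1, had 67.4 ± 2.42 and 77.1 ± 8.06 CPM. Both pairs of groups lacked overlap, as did those of 3.22% of all genes. The log2 fold changes of Gsk3b and Tsc2 were -0.16 ± 0.095 and 0.19 ± 0.10. In edgeR their unadjusted p was 0.12 and 0.082, and both had an adjusted p of 0.921. Akt1s1, which encodes the Akt substrate PRAS40, was at 0.15 ± 0.13, with cKO 3 the highest at 111 CPM. Without both libraries 3 the estimates were -0.093 for Gsk3b, 0.13 for Tsc2 and -0.040 for Akt1s1. Of 19 SGK substrates and epithelial transport targets, 10 were higher and 9 lower and 0 were called. An unadjusted p under 0.05 was found for 2 of them, beside 3.9% of all genes. Scnn1a, the alpha subunit of the epithelial sodium channel, had 17.7, 14.9, 17.2 and 16.2 CPM in WT and 10.5, 11.9, 14.3 and 11.6 CPM in cKO. Every cKO library lay below every WT library, at a log2 fold change of -0.45 ± 0.14 and an adjusted p of 0.921. Over 20 other settings its estimate stayed between -0.57 and -0.35 and was called in 0. Wnk4, a kinase that regulates sodium and chloride transport, was at 0.47 ± 0.20, and Foxo3 and Gsk3b stand in both substrate lists.

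Signals that act on the members from above were also compared. Of 18 inducers of Sgk1 and targets of the glucocorticoid and mineralocorticoid receptors tested, 8 were higher and 10 lower and 0 were called. Nr3c1, the glucocorticoid receptor, had 232 ± 23.2 CPM in WT and 191 ± 40.1 CPM in cKO (-0.28 ± 0.16), with its highest value in WT 3 and its lowest in cKO 3, as for Sgk1, Sgk3 and Prkce. Per1 and Cdkn1c, both glucocorticoid targets, were at 0.24 ± 0.15 and 0.44 ± 0.23. Unlike Nr3c1, both had their highest value in cKO 3, at 70.1 and 4.60 CPM. Any link of the receptor or its targets to the Sgk1 values was not tested. Without both libraries 3, Nr3c1 was at -0.060 and Per1 at 0.14. Of 21 activators and substrates of protein kinase C, 10 were higher and 11 lower and 0 were called. Rgcc, a cell cycle regulator, had 2.97 ± 1.32 and 6.30 ± 2.72 CPM (1.09 ± 0.37, adjusted p = 0.921). Plcb4, a phospholipase that makes diacylglycerol, was at -0.50 ± 0.28, and Dgkz, a kinase that removes it, at 0.21 ± 0.13 (0.054 without both libraries 3).

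The lipid kinase pathway that brings PDK1 and Akt to the membrane held the 2 genes with the smallest p among the pathway lists. Of its 15 genes, 6 had higher and 9 lower estimates and 0 were called. An unadjusted p under 0.05 was found for 3 of them, beside 3.9% of all genes. Irs2, an adaptor that links the insulin receptor to phosphoinositide 3-kinase, had 53.2, 47.7, 64.0 and 48.6 CPM in WT and 87.0, 79.9, 105 and 92.9 CPM in cKO. All cKO libraries were above all WT libraries, with WT 3 and cKO 3 the highest of their groups. The log2 fold change was 0.77 ± 0.13 at an adjusted p of 0.276. Over 20 other settings the estimate stayed between 0.67 and 0.87 and Irs2 was called in 4, with DESeq2 (adjusted p = 0.000287), without the filter on low counts (0.0111), with voom (0.0115) and without both libraries 3 (0.0451). Pik3r3, a regulatory subunit of that kinase, had 5.82, 6.73, 10.2 and 7.45 CPM in WT and 4.32, 3.60, 3.53 and 4.29 CPM in cKO, again without overlap, at -0.94 ± 0.22 and an adjusted p of 0.599. DESeq2 called it at an adjusted p of 0.0318. Irs1, the related adaptor, was low, at 0.849 ± 0.260 and 1.73 ± 0.505 CPM (1.02 ± 0.34, adjusted p = 0.921).

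The genes whose levels followed a member most closely across the libraries were ranked by Pearson's r of log2 CPM after subtraction of each genotype's mean, over 8 libraries and 9977 genes, as a description. Nearest to Akt1 were Sf3a2 (r = 0.991, Spearman's coefficient 0.976), Noc4l (r = 0.982, Spearman's coefficient 0.881) and Entpd6 (r = 0.982, Spearman's coefficient 1.0). Without WT 3 and cKO 3, the libraries farthest from the median of Akt1, r was 0.986, 0.944 and 0.947. For Sgk1 they were Mex3a (r = 0.977, Spearman's coefficient 0.833), Rai14 (r = 0.972, Spearman's coefficient 0.929) and Mtmr7 (r = 0.968, Spearman's coefficient 0.929), with r of 0.957, 0.951 and 0.919 without WT 3 and cKO 4. For Prkca they were Zfp820 (r = 0.984, Spearman's coefficient 0.881), Eif3j1 (r = 0.982, Spearman's coefficient 0.952) and Mettl15 (r = 0.968, Spearman's coefficient 0.929), with r of 0.932, 0.873 and 0.854 without WT 4 and cKO 4. These genes were picked as the closest of many over few points, and all values of a library share its depth and its base composition trend.

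The positions of the genes are those of the deposited table, which are identical in GENCODE M21 for all 9. On GRCm38, Akt1 lies on chromosome 12 (112653821 to 112674884), Akt2 on 7 (27591552 to 27640826), Sgk1 on 10 (21882184 to 21999903), Sgk2 on 2 (162987330 to 163014127) and Sgk3 on 1 (9798107 to 9900845). Prkca lies on chromosome 11 (107933387 to 108343928), Prkcd on 14 (30595354 to 30626210), Prkce on 17 (86167785 to 86657919) and Pdpk1 on 17 (24073680 to 24150924). Prkca shares 30 exon bases with Apoh on the opposite strand, and Prkce shares 472 with the gene model AC154542.1 on the same strand. Reads in those bases could be counted for either gene, and how strand and shared bases were treated is not given in the sources used here.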

How the data were processed

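RNA of intestinal epithelial cells was sequenced on an Illumina NovaSeq instrument and processed with Hisat2 and then Stringtie, per the labels' design text. Of the versions, genome build, library kit and counting program, none is given in the sources used here. The authors deposited whole-number read counts per gene without normalization, and FPKM values for the same 54139 genes. The totals implied by the deposited FPKM were 0.955 to 1.06 of the column totals of the counts, and 1.01 to 1.02 of the TMM-scaled totals.

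Counts were tested with edgeR 4.0.16 in R 4.3.3 (robust quasi-likelihood F-test, TMM factors), with genotype as the one term and filterByExpr as the filter, which left 14701 genes. The p-values were adjusted by Benjamini-Hochberg over these genes, with a threshold of 0.05. The standard error is the log2 fold change divided by the square root of F, and its median over genes was 0.17. Poisson intervals at 95% cover counting error only. Depth ran from 15110451 to 18708335 counts a library. No libraries agreed within sampling noise (lowest chi-square per degree of freedom 10.7). Nothing says that libraries came from separate mice, so p-values measure only the spread between these libraries, which may be technical.

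Alternatives were other scaling factors (RLE and upper-quartile), other filters (none, or a CPM of 1 in 4 libraries), DESeq2 1.42.0, limma 3.58.1 (voom with quality weights, and log2 of FPKM plus 0.1 or 1, the former also with a mean FPKM of at least 0.5), the replicate number as a block, offsets that remove the trend on length and GC content (GC known for 98.3% of genes), leaving out each library, and leaving out both libraries numbered 3. The edgeR step was also run on simulated counts. These held no length and GC trend and no libraries that stand apart, so they cannot show how WT 3 and cKO 3 affect the results.

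All 9 members are named. Of each pathway list up to 3 genes with the smallest unadjusted p are named, plus any called gene, and for Akt1, Sgk1 and Prkca the 3 genes with the highest r at a mean CPM of at least 5, predicted and clone-named genes left out. Some genes of the lists are not reported here and are left out of the counts. The members and lists were chosen with earlier results of these data known. Where a list has more genes than were tested, the rest failed the filter or are not in the table under that symbol. The search planned on reference proteins was run on coding bases instead, and the turn motif was not searched, since no protein table was used here. The motif searched was a codon for phenylalanine, any 2 codons, phenylalanine or tyrosine, then serine, threonine, aspartate or glutamate, then phenylalanine or tyrosine, in 1 transcript a gene (APPRIS principal, then CCDS, then longest coding sequence). Of the deposited gene identifiers, 53620 are in GENCODE M21 and 97.1% of these have identical coordinates there.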

Additional observations from a re-analysis of the deposited data

Results flagged for a closer look

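In groups of 4 libraries, a library was singled out where its gap to the nearest other exceeded 0.829 of the group's range in CPM. Of 66 such groups (the members and the other genes named, in WT and in cKO) 10 were singled out, against about 3.3 that chance alone gives at 1 in 20. Akt1 was at 166.2 CPM in WT 3 with the others from 211 to 216 CPM, and Sgk2 at 4.134 CPM in WT 3 with the others from 1.01 to 1.16 CPM. Prkca was at 194.8 CPM in cKO 4 (others 144 to 149.6 CPM) and Pdpk1 at 117.4 CPM in WT 2 (others 113.6 to 113.7 CPM), the latter a small step above an unusually tight set. Outside the members, Prkci was at 110.8 CPM in WT 3 (120.3 to 122 CPM), Nr3c1 at 266.2 CPM in WT 3 (217 to 222 CPM) and at 131.8 CPM in cKO 3 (204 to 219 CPM), and Akt1s1 at 111.1 CPM in cKO 3 (79.2 to 81.1 CPM). Tti2 was at 18.7 CPM in cKO 2 (17.7 to 17.8 CPM) and Tsc2 at 63.8 CPM in WT 2 (68.5 to 68.7 CPM). Of the 10, 6 were in WT 3 or cKO 3.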

How the results depend on the processing

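Under 20 other settings 0 members were called, of 9 fitted in each except limma with a mean FPKM of at least 0.5, which fitted 7 (without Sgk2 and Sgk3), while the number of genes called over the whole table, 2 in the reported fit, was 37 with DESeq2, 10 with no filter, 8 with voom, 4 without both libraries 3, 1 with limma on log2(FPKM + 0.1), 0 on log2(FPKM + 1), and from 0 to 3 on leaving out 1 library. With the replicate number as a replicate block it was 0. Correlations of same-numbered libraries were -0.108, 0.108, 0.152 and 0.138. Libraries 3 and 4 correlated best with their own number, but WT 1 with cKO 2 (0.148) and WT 2 with cKO 1 (0.123). The labels name no batch, animal or litter, so the numbers were not taken as pairs in the reported fit. These correlations do not settle whether libraries of the 2 groups share a source. Log2 fold changes turned sign with the length and GC trend removed (Akt1 -0.0080, Sgk3 0.045, Pdpk1 0.012, Akt1s1 -0.012), with voom (Akt1 -0.011, Sgk1 0.18, Sgk3 0.29, Prkca 0.012, Prkce 0.077) and without both libraries 3 (Akt1 -0.047, Sgk1 0.18, Sgk2 0.16, Sgk3 0.32, Prkcd 0.073, Prkce 0.037, Pdpk1 0.0036, Akt1s1 -0.040). Leaving out 1 library gave from -0.47 to 0.035 for Sgk1, -1.29 to 0.024 for Sgk2, -0.26 to 0.11 for Sgk3, -0.14 to 0.071 for Prkcd and -0.16 to 0.0077 for Pdpk1. The estimates of Sgk1, Sgk2, Sgk3 and Prkcd were above 0 without WT 3. Those of Sgk3 (0.080) and Pdpk1 were above 0 without cKO 3. The cause was not tested. Sgk2 rested on 9 to 67 counts a library, and the Poisson interval of WT 3 did not overlap those of the other libraries.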
